A study of Mus musculus with 12 samples.

Results

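The presynaptic vesicle and release machinery is described here in the hippocampus of epileptic mice given bacterial lipopolysaccharide (LPS). The set was chosen by gene name and holds 36 genes: proteins of the synaptic vesicle, the SNARE fusion proteins and their regulators, synaptotagmins, proteins of the active zone, endocytic proteins and the vesicular glutamate transporters. All 36 had a probe on the array, and 34 of them passed the filter for low signal, out of 18193 genes that passed it in the whole series. A gene passed if a probe stood well above background throughout 1 group or more (3 of 3 arrays), and the passing probe with the highest mean signal stood for the gene. The other two, Sv2c and Syt2, had 1 probe each, which did not pass, and are not counted below. All 34 measured genes were well above background on 3 of 3 arrays in every group.

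Male C57BL/6N mice aged 12 weeks had been injected in the left dorsal hippocampus with kainate, which activates glutamate receptors (50 nl, 20 mM), so every group, controls included, carries the kainate lesion. After 3 weeks, with recurrent seizures established, each animal had 1 intraperitoneal injection, either of LPS from Salmonella enterica at 100 µg/kg in PBS or of saline. Whole hippocampi were dissected 4 h or 24 h later, which gives 4 groups of 3 animals with 1 single-colour array each. Which side was dissected is not given in the sources used here. Kainate injection is known to kill hippocampal neurons and to activate glia, which limits the tissue as a model of a healthy terminal, and no mouse without kainate was compared.

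At a nerve terminal, neurotransmitter is stored in small vesicles, a cluster of which is held near the membrane by synapsins and by the scaffold of the active zone. The vesicle SNARE synaptobrevin (Vamp) and the plasma membrane SNAREs syntaxin and SNAP-25 zip together to bring the membranes into contact, complexins and Munc13 proteins (Unc13) prepare this complex, and synaptotagmins sense the calcium that triggers fusion. NSF and its SNAP adaptors then take the SNARE complex apart, and dynamin and clathrin adaptors recover the membrane. Glutamate is loaded by vesicular transporters, of which VGLUT1 (Slc17a7) marks most cortical and hippocampal glutamatergic neurons and VGLUT2 (Slc17a6) is typical of the thalamus and other subcortical nuclei.

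Values are log2 of the processed spot intensity minus the 75th percentile of that array, called the relative signal, and differences are LPS minus saline on that log2 scale, given with their standard error after ±. They were compared with limma over all genes, and a gene was called higher or lower where the Benjamini-Hochberg adjusted p was under 0.05. The array's 75th percentile was 365 ± 12.3 intensity units (SD, n = 3) for saline at 4 h, 663 ± 33.6 for LPS at 4 h, 769 ± 60.7 for saline at 24 h and 820 ± 116 for LPS at 24 h, so the 4 h saline arrays were the dimmest. All 4 h arrays were scanned in 1 run and all 24 h arrays in another, so that time and scan run cannot be told apart. Each of 6 slides held 1 saline and 1 LPS array of the same time. The 12 inflammatory response genes listed, Il1b, Socs3 and Oasl1 among them, were higher after LPS at both times. That list was chosen with earlier results of these data known, so it is no independent check of the treatment. The tissue markers were present: 18 of 18 markers of hippocampal excitatory neurons and 15 of 16 pan-neuronal markers passed the filter, and so did all 12 thalamic markers. The median SD between arrays of a group over the presynaptic genes ranged from 0.0275 to 0.0609.

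At 4 h, 14 of the 34 presynaptic genes were higher after LPS, 9 were lower and 11 were not called. The background was high: 73.8% of all genes tested were called at 4 h, 29.3% higher and 44.5% lower, against 67.6% of the presynaptic genes, 41.2% higher and 26.5% lower. Their median difference was 0.09, and that of all genes was -0.15. The rises were led by Syt4, Slc17a6, Syp and Slc17a7, the 4 that rose at least 2-fold, and the falls by Rph3a, the 1 that fell by as much. Over all genes, 7.41% rose and 4.46% fell at least 2-fold at this time. The split depended on the scaling of the arrays: 8 genes were higher and 14 lower with each array centred on its median, 20 higher and 4 lower with quantile normalization, and 22 higher and 4 lower with cyclic loess. Of all genes, 21.5% were higher and 54.2% lower with median centring, 31.7% and 39.3% with quantile normalization, and 33.1% and 39% with cyclic loess. Of the 9 genes called lower, Rab3a, Cplx2, Nsf, Syt11 and Amph had differences above 0 with quantile normalization and with cyclic loess, while Synpr, Sv2a, Rph3a and Rims1 stayed below 0 under both. Of the 14 called higher, Vamp1, Stx1a, Syt1, Syt7 and Unc13a lost their call with median centring, and Napb was at -0.04 there (adjusted p = 0.48). Under every alternative run with the saline arrays of the same time, 11 of the 23 calls held: Syp, Synpr, Sv2a, Vamp2, Syt4, Rph3a, Pclo, Dnm1, Snap91, Slc17a7 and Slc17a6.

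At 24 h the balance was the other way, with 19 of 34 genes lower, 4 higher and 11 not called. Of all genes tested 46.1% were called at 24 h, 23.3% higher and 22.8% lower, so the 55.9% of the presynaptic genes that were lower stands against 22.8% of all genes. The changes were small: the median difference was -0.15, against 0.00 over all genes, and none of the 34 reached 2-fold in either direction, against 2.98% of all genes that rose and 0.231% that fell at least 2-fold. Syn3, Snap25, Pclo, Synpr and Cplx2 had the largest falls, and Slc17a6, Rims1, Rph3a and Sv2a were the 4 that rose. The arrays of the 2 treatments did not overlap for 25 of the 34 genes (73.5%), against 55% of all genes, and at 4 h for 27 (79.4%), against 77.3%. With each array centred on its median 2 genes were higher and 25 lower at 24 h, as were 15.7% and 35.3% of all genes, and with normexp background correction 1 was higher and 9 lower, where calls over all genes also dropped, to 10.1% higher and 8.67% lower. Under every alternative run with the saline arrays of the same time, 8 of the 23 calls held: Syn2, Synpr, Snap25, Stx1a, Cplx2, Pclo, Snap91 and Slc17a6. In bulk tissue, fewer cells of a type and less RNA per cell cannot be told apart.

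Within each slide, the median of the 34 differences at 4 h was 0.06, 0.11 and 0.09, against -0.13, -0.18 and -0.12 for all genes. At 24 h it was -0.15, -0.17 and -0.13 on the 3 slides, against 0.01, 0.00 and 0.02 for all genes. The sign was the same on all 3 slides for 29 of the 34 genes at 4 h and for 31 at 24 h. This was not counted over all genes. Of those, 77.3% at 4 h and 55% at 24 h had arrays of the 2 treatments that did not overlap, and hence the same sign on every slide. At 4 h no call was lost when 1 array was left out, and Syn1 became lower without saline replicate 3 (-0.59, adjusted p = 0.013) or without LPS replicate 3 (-0.52, adjusted p = 0.0394). At 24 h several of the smallest differences lost their call when any of several arrays was left out. Syp lost its call without saline replicate 1 (-0.07, adjusted p = 0.0748) or 3 (-0.09, adjusted p = 0.0525) and without LPS replicate 1 (-0.09, adjusted p = 0.0533) or 2 (-0.09, adjusted p = 0.0591). Vamp2 lost it without saline replicate 2 (-0.12, adjusted p = 0.0652) or 3 (-0.07, adjusted p = 0.159) and without LPS replicate 1 (-0.10, adjusted p = 0.113) or 2 (-0.08, adjusted p = 0.161). Rims2 lost it without saline replicate 1 (-0.11, adjusted p = 0.0888) or 3 (-0.11, adjusted p = 0.087) and without LPS replicate 2 (-0.12, adjusted p = 0.08) or 3 (-0.11, adjusted p = 0.0734). These 3 code for the vesicle protein synaptophysin, the main vesicle SNARE and an active-zone organiser. Unc13a lost its call without saline replicate 1 (-0.10, adjusted p = 0.0723) or 2 (-0.09, adjusted p = 0.0765) or LPS replicate 2 (-0.10, adjusted p = 0.079). Dnm1 lost its call without saline replicate 2 (-0.11, adjusted p = 0.0616) or LPS replicate 1 (-0.10, adjusted p = 0.0568). Sv2a lost its call without saline replicate 1 (0.16, adjusted p = 0.112) or 3 (0.16, adjusted p = 0.111) or LPS replicate 3 (0.09, adjusted p = 0.0652). In the other direction, calls were gained by genes that code for further parts of the release machinery. Without saline replicate 3, Vamp1 became higher (0.16, adjusted p = 0.0356), while Syt5 (-0.17, adjusted p = 0.0164), Syt7 (-0.12, adjusted p = 0.0473) and Bsn (-0.19, adjusted p = 0.0131) became lower. Nsf (-0.16, adjusted p = 0.00209) and Unc13c (-0.31, adjusted p = 0.0378) became lower without LPS replicate 3, and Syt7 without LPS replicate 2 (-0.13, adjusted p = 0.0228).

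Among the vesicle proteins, synaptophysin (Syp, probe at chrX:7229975-7230034 on mm9), an abundant membrane protein of synaptic vesicles, had a relative signal of 1.34, 1.38 and 1.36 on the 3 saline arrays at 4 h and 2.54, 2.55 and 2.52 on the LPS arrays. The 24 h values were 3.87, 3.78 and 3.83 with saline and 3.73, 3.73 and 3.74 with LPS. The LPS arrays were all above the saline arrays at 4 h and all below them at 24 h, but both 24 h groups lay above both 4 h groups. The difference at 4 h was 1.18 ± 0.029, a 2.26-fold rise with an adjusted p of 5.65e-10. At 24 h it was -0.10 ± 0.029, with an adjusted p of 0.0217.

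Synaptoporin (Synpr, chr14:14447724-14447783), a relative of synaptophysin that is abundant in mossy fibre terminals, was lower after LPS at both times. Its relative signal was 4.00, 3.90 and 3.85 with saline and 3.18, 3.19 and 3.29 with LPS at 4 h. At 24 h the saline arrays gave 3.15, 3.14 and 3.17 and the LPS arrays 2.70, 2.78 and 2.79. The groups did not overlap at either time, and the LPS arrays at 24 h were the lowest of all. It fell by 0.70 on the log2 scale at 4 h (adjusted p = 3.61e-07) and by 0.40 at 24 h (adjusted p = 8.68e-05).

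SV2A (Sv2a, chr3:95998499-95998558) is the vesicle glycoprotein to which the antiepileptic drug levetiracetam binds. The saline arrays at 4 h gave 2.27, 2.24 and 2.29 and the LPS arrays 1.85, 1.87 and 1.89, all lower. At 24 h the values were 3.22, 3.31 and 3.22 with saline and 3.37, 3.32 and 3.59 with LPS, the LPS values all higher but the lowest of them close to the highest saline value. The difference was -0.39 ± 0.061 at 4 h (adjusted p = 0.000212) and 0.17 ± 0.061 at 24 h (adjusted p = 0.0428). A second probe of Sv2a gave -0.51 at 4 h and -0.02 at 24 h, where its adjusted p over the 27683 passing probes was 0.78. Its paralogue Sv2b was not called at 4 h (0.04 ± 0.026) and was lower at 24 h (-0.34 ± 0.026, adjusted p = 5.03e-06). Of the other Sv2b probes, the brighter was called lower at 4 h (-0.23, adjusted p = 0.0259 over all passing probes) and at 24 h (-0.28, adjusted p = 0.0188), and the dimmest was not called. The mean of the 3 probes gave -0.01 at 24 h (adjusted p = 0.955).

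Synapsins tether vesicles to one another and to actin. Synapsin III (Syn3, chr10:85511620-85511679) had the largest fall of the 34 genes at 24 h by its chosen probe. Its saline arrays there gave -0.33, -0.52 and -0.39 and its LPS arrays -0.97, -0.79 and -0.82. The 24 h groups stood apart and both lay below the 4 h arrays, which were 0.14, 0.04 and 0.06 with saline and 0.21, 0.15 and 0.24 with LPS. The difference at 24 h was -0.45 ± 0.061 (adjusted p = 0.000225), and at 4 h it was 0.12 ± 0.061 and not called (adjusted p = 0.102). Of its 3 other passing probes 1 fell at 24 h, by 0.57 (adjusted p = 0.000719 over all passing probes), and the 2 dimmest were not called, at 0.16 and 0.00. The mean of its probes gave -0.215 at 24 h (adjusted p = 0.172). Synapsin II (Syn2) was likewise not called at 4 h (0.06 ± 0.062) and lower at 24 h (-0.32 ± 0.062, adjusted p = 0.00207). Another Syn2 probe, on a different transcript, rose by 0.66 at 4 h (adjusted p = 3.83e-06 over all passing probes), and all 3 were lower at 24 h.

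Synapsin I (Syn1) was not called at either time by the probe chosen for it, with differences of -0.42 ± 0.18 at 4 h and -0.18 ± 0.18 at 24 h. That probe has G or C at 81.7% of its 60 bases, near the start of the transcript, and its saline arrays at 4 h spread from 0.79 to 1.49. The other probe of Syn1, with 43.3% G and C, rose by 1.33 at 4 h (adjusted p = 6.3e-08 over all passing probes) and gave -0.18 at 24 h (adjusted p = 0.0605). The 2 probes thus differ in the sign of the 4 h difference, and their first 30 bases are given to show how unlike the targets are in composition.
Syn1, chosen probe (chrX:20497763-20497822, - strand): ccgccgcctccctcggccgccagccctggg
Syn1, other probe (chrX:20437893-20437952, - strand): tctgacagctgtctttaaatatgcaaactc
Both positions are on mm9 as the array files give them, and all probe stretches are written 5′ to 3′ with no base marked.

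Rab3a and Rab3c, small GTPases that attach to vesicles before release, complete the vesicle proteins. Rab3a was lower at both times, by 0.32 at 4 h (adjusted p = 2.89e-05) and 0.16 at 24 h (adjusted p = 0.00797) on the log2 scale, but its 4 h difference was 0.14 with quantile normalization. Rab3c was not called at 4 h (0.00 ± 0.082) and fell by 0.31 at 24 h (adjusted p = 0.0114). Of the 9 measured vesicle proteins, 1 was higher and 3 were lower at 4 h, and 1 was higher and 7 were lower at 24 h.

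Of the 8 SNARE and fusion genes, 4 were higher and 2 lower at 4 h, while at 24 h none was higher and 5 were lower. They were called about as often as all genes at 4 h, 75% against 73.8%. At 24 h 62.5% were lower, against 22.8% of all genes. The vesicle SNAREs Vamp1 and Vamp2 rose at 4 h by 0.23 (adjusted p = 0.0031) and 0.36 (adjusted p = 1.31e-05). With median centring Vamp1 was at 0.06 and not called (adjusted p = 0.432). At 24 h Vamp1 was not called (0.12 ± 0.054), and Vamp2 was lower by 0.10 at an adjusted p of 0.0482, with arrays that overlapped. Neither other probe of Vamp2 was called at 4 h, at -0.02 and -0.04, or at 24 h, at 0.07 and 0.02. The mean of the Vamp2 probes was -0.0025 at 24 h and not called (adjusted p = 0.962). Syntaxin 1A (Stx1a), a plasma membrane SNARE, rose by 0.21 at 4 h (adjusted p = 0.0046, but 0.04 with an adjusted p of 0.591 with median centring) and fell by 0.28 at 24 h (adjusted p = 0.0015).

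SNAP-25 (Snap25), the other plasma membrane SNARE, had relative signals of 4.61, 4.57 and 4.44 with saline and 4.68, 4.68 and 4.81 with LPS at 4 h. At 24 h they were 4.27, 4.56 and 4.40 with saline and 3.78, 3.99 and 4.20 with LPS. The 4 h groups did not overlap but lay close to each other, and at 24 h every LPS array was below every saline array. The 4 h difference of 0.18 ± 0.11 was not called (adjusted p = 0.15), and at 24 h the gene was lower by 0.42 (adjusted p = 0.00927). Of its other probes, the one designed on the RefSeq transcript rose by 1.0 at 4 h (adjusted p = 2.56e-08 over all passing probes) and fell by 0.43 at 24 h (adjusted p = 4.31e-05). The chosen probe carries no genome position in the array files.

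Complexin 2 (Cplx2, chr13:54485200-54485259), which binds the assembled SNARE complex, was lower at both times. At 4 h the arrays gave 6.43, 6.5 and 6.48 with saline and 5.99, 6.06 and 6.06 with LPS. At 24 h they gave 5.95, 6.06 and 6.04 with saline and 5.66, 5.67 and 5.64 with LPS. The LPS arrays at 4 h lay within the range of the saline arrays at 24 h, and the LPS arrays at 24 h were the lowest. The differences were -0.44 ± 0.036 at 4 h (adjusted p = 1.77e-06) and -0.36 ± 0.036 at 24 h (adjusted p = 3.12e-05), and with quantile normalization that at 4 h was 0.06 and not called. The 4 passing probes of Cplx2 are on the same RefSeq transcript and disagreed at 4 h: 3 were lower, by 0.44, 1.52 and 0.20, and 1 was higher, by 0.46. At 24 h the same probes gave -0.36, -0.46, -0.35 and -0.07, the last of which was not called. Their first 30 bases show that they are separate stretches of the transcript, in the order in which they lie along it.
Cplx2, lower by 0.20 at 4 h (chr13:54479998-54480057, + strand): ccacgggctagagagcattaaccaaagcct
Cplx2, lower by 1.52 at 4 h (chr13:54481163-54481222, + strand): cagttaagtctcagttccaaaggggaaaac
Cplx2, higher by 0.46 at 4 h (chr13:54483702-54483761, + strand): ccttcacagatagacctcaaaggtaatgaa
Cplx2, the chosen probe, lower by 0.44 at 4 h (chr13:54485200-54485259, + strand): tccccactttgtatgatgcaaatgctaaga
Complexin 1 (Cplx1) was not called at 4 h (0.05 ± 0.054, adjusted p = 0.41) or at 24 h (-0.02 ± 0.054, adjusted p = 0.786).

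NSF (Nsf, chr11:103683978-103684037), the ATPase that takes used SNARE complexes apart, gave 4.14, 4.10 and 4.10 with saline and 3.90, 3.91 and 3.94 with LPS at 4 h. The 24 h arrays gave 5.05, 5.0 and 4.99 with saline and 4.86, 4.85 and 5.08 with LPS. The LPS arrays were lower at 4 h, while at 24 h the third LPS array was the highest of all 12. Nsf was called lower at 4 h (log2 difference -0.20 ± 0.055, adjusted p = 0.00755) and not called at 24 h (-0.08 ± 0.055, adjusted p = 0.254). With cyclic loess the 4 h difference was 0.15 (adjusted p = 0.0295). Its other passing probe was called higher at 4 h, by 0.17 (adjusted p = 0.0385 over all passing probes). Its adaptor β-SNAP (Napb) rose by 0.13 at 4 h (adjusted p = 0.00276) and fell by 0.18 at 24 h (adjusted p = 0.00108), and both of its probes were called in these directions. With median centring the 4 h difference was -0.04 and with normexp 0.145, neither of them called (adjusted p = 0.48 and 0.13).

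Among the synaptotagmins, Syt4 (chr18:31599213-31599272), a form that lacks the usual calcium binding and sits on vesicles of the secretory pathway, had the largest difference of the set. Its relative signal at 4 h was -2.91, -2.34 and -2.49 with saline and 0.10, 0.02 and -0.04 with LPS. At 24 h it was 1.10, 1.06 and 1.27 with saline and 0.95, 0.92 and 0.97 with LPS. The 4 h saline arrays stood far below the other 9, and the LPS arrays at 4 h were still below both 24 h groups. The difference was 2.61 ± 0.12 at 4 h, 6.09-fold with an adjusted p of 3.48e-08, and -0.20 ± 0.12 at 24 h, which was not called (adjusted p = 0.223). The other probe of Syt4 rose by 1.99 at 4 h and fell by 0.29 at 24 h (adjusted p = 0.00332 over all passing probes). Against the saline arrays of 24 h, which differ in time and scan run too, LPS at 4 h was lower in Syt4 by 1.12 (adjusted p = 1.9e-05).

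Syt1, the calcium sensor of fast release, rose by 0.30 at 4 h (adjusted p = 0.00381, or 0.13 with an adjusted p of 0.0963 with median centring) and was not called at 24 h (-0.15 ± 0.073, adjusted p = 0.135). All 6 of its probes were called higher at 4 h, by 0.30 to 1.13. Syt7 (chr19:10525625-10525684), a slower sensor linked to asynchronous release and to the refilling of the vesicle pool, gave 3.26, 3.16 and 3.18 with saline and 3.41, 3.36 and 3.39 with LPS at 4 h. The later arrays gave 3.51, 3.52 and 3.45 with saline and 3.35, 3.46 and 3.37 with LPS. The groups did not overlap at 4 h and overlapped at 24 h. The difference was 0.18 ± 0.038 at 4 h (adjusted p = 0.00136) and -0.10 ± 0.038 at 24 h (adjusted p = 0.0544). With median centring the 4 h difference was 0.02 (adjusted p = 0.76). Of its other passing probes, 2 rose at 4 h, by 0.92 and 1.28, and the one farthest along the transcript fell by 0.39. Syt11, which does not bind calcium, was lower at both times, by 0.21 (adjusted p = 0.00217) and 0.22 (adjusted p = 0.0037), but at 0.26 at 4 h with quantile normalization. Its second probe was at -0.10 at 4 h (adjusted p = 0.0242 over all passing probes) and 0.05 at 24 h (adjusted p = 0.246). The mean of its probes was not called at 24 h (-0.08, adjusted p = 0.108). Syt5 was called at neither time (-0.04 ± 0.054 at 4 h and -0.12 ± 0.054 at 24 h). Of the 5 measured synaptotagmins, 3 were higher and 1 lower at 4 h, and 1 was lower at 24 h. In all, 80% of them were called at 4 h and 20% at 24 h, against 73.8% and 46.1% of all genes.

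The active zone is the scaffold at which vesicles dock. Piccolo (Pclo, chr5:14795835-14795894), one of its largest proteins, gave 2.53, 2.51 and 2.51 with saline and 3.15, 3.14 and 3.17 with LPS at 4 h. Its values at 24 h were 3.15, 3.20 and 3.14 with saline and 2.79, 2.76 and 2.73 with LPS. The LPS arrays at 4 h were level with the saline arrays at 24 h, and the LPS arrays at 24 h lay between those and the saline arrays at 4 h. Pclo rose by 0.64 at 4 h (adjusted p = 1.48e-08) and fell by 0.40 at 24 h (adjusted p = 1.89e-06). Of its other two probes, 1 was called in the same direction at both times, at 0.73 and -0.48, and the dimmest was not called. Bassoon (Bsn), its partner scaffold, was called at neither time, at -0.09 ± 0.053 and -0.14 ± 0.053, although a much dimmer second probe rose by 1.52 at 4 h (adjusted p = 0.000858 over all passing probes).

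Rabphilin 3A (Rph3a, chr5:121391927-121391986), an effector of Rab3, fell most at 4 h. Its relative signal was 1.84, 1.85 and 1.82 with saline and 0.85, 0.83 and 0.82 with LPS at 4 h. At 24 h it was 1.09, 0.98 and 1.17 with saline and 1.28, 1.28 and 1.30 with LPS. The 4 h groups differed 2-fold with no overlap, and at 24 h the LPS arrays were above the saline arrays. The differences were -1.0 ± 0.042 (adjusted p = 1.47e-08) and 0.21 ± 0.042 (adjusted p = 0.00287). A second probe on the same transcript gave -0.03 at 4 h (adjusted p = 0.451 over all passing probes) and 0.16 at 24 h (adjusted p = 0.00269), so that the 2 probes were called together at 24 h only.

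RIM1 (Rims1, chr1:22545140-22545199), which links vesicles to calcium channels, showed the same order of directions. It gave -2.64, -2.72 and -2.65 with saline and -2.98, -2.85 and -3.00 with LPS at 4 h. At 24 h it gave -2.57, -2.62 and -2.62 with saline and -2.21, -2.28 and -2.14 with LPS. The LPS arrays were below the saline arrays at 4 h and above them at 24 h. It fell by 0.28 at 4 h (adjusted p = 0.000485) and rose by 0.39 at 24 h (adjusted p = 0.000139). With normexp background correction neither was called, at -0.24 (adjusted p = 0.118) and 0.26 (adjusted p = 0.167). Its 1 probe was dim, with a mean log2 signal of 6.68 against a median of 12.17 over the presynaptic genes. RIM2 (Rims2) was not called at 4 h (0.01 ± 0.04) and was lower at 24 h (-0.12 ± 0.04, adjusted p = 0.0273). A second Rims2 probe rose by 1.19 at 4 h and fell by 0.20 at 24 h (adjusted p = 0.00464 over all passing probes).

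Munc13-1 (Unc13a, chr8:74150875-74150934), which primes vesicles for fusion, gave 1.67, 1.62 and 1.65 with saline and 1.82, 1.82 and 1.86 with LPS at 4 h. The 24 h arrays gave 1.74, 1.75 and 1.65 with saline and 1.61, 1.57 and 1.63 with LPS. The groups stood apart at both times by small margins. It was higher at 4 h by 0.19 (adjusted p = 0.000622, or 0.02 with an adjusted p of 0.671 with median centring) and lower at 24 h by 0.11 (adjusted p = 0.0227). Its other probe was designed on a cDNA clone from dendritic cells and went the opposite way at both times, at -1.12 and 0.36 (adjusted p = 0.000839 at 24 h over all passing probes). The 2 targets lie over 30 kb apart in the gene on mm9, and the first 30 bases of each are given because the call turns on the choice.
Unc13a, chosen probe, designed on the RefSeq transcript (chr8:74150875-74150934, - strand): ttcttagcatgtgactgcaaaggtagaatc
Unc13a, other probe, designed on the cDNA clone (chr8:74184257-74184316, - strand): cgggaatgcacgggctcatctcacagaaca
Unc13c, a paralogue best known from the cerebellum, was not called at 4 h (0.12 ± 0.1) or 24 h (-0.24 ± 0.1). Of the 7 active-zone genes, 2 were higher and 2 lower at 4 h, and 2 were higher and 3 lower at 24 h.

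All 3 endocytic genes were called at both times. Of all genes, 73.8% were called at 4 h and 46.1% at 24 h. Dynamin 1 (Dnm1, chr2:32164345-32164404), the GTPase that pinches off recovered vesicles, gave 1.71, 1.70 and 1.69 with saline and 2.37, 2.40 and 2.34 with LPS at 4 h. The later arrays gave 3.33, 3.40 and 3.31 with saline and 3.13, 3.27 and 3.22 with LPS. As with Syp, both 24 h groups were above both 4 h groups. The difference was 0.67 ± 0.039 at 4 h (adjusted p = 1.49e-07) and -0.14 ± 0.039 at 24 h (adjusted p = 0.0171). AP180 (Snap91), a clathrin adaptor, also rose at 4 h (0.30, adjusted p = 1.02e-05) and fell at 24 h (-0.28, adjusted p = 6.67e-05).

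Amphiphysin (Amph, chr13:19242694-19242753), which brings dynamin to the neck of the vesicle, was lower at both times. It gave 6.01, 5.99 and 6.08 with saline and 5.62, 5.60 and 5.62 with LPS at 4 h. Its values at 24 h were 5.46, 5.31 and 5.42 with saline and 5.17, 5.22 and 5.25 with LPS. The 4 groups did not overlap, in descending order saline 4 h, LPS 4 h, saline 24 h and LPS 24 h. It fell by 0.41 at 4 h (adjusted p = 8.58e-06) and by 0.18 at 24 h (adjusted p = 0.00545). With quantile normalization the 4 h difference was 0.04 and not called. Its other, much dimmer probe was not called at either time.

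VGLUT1 (Slc17a7, chr7:52430841-52430900) gave -0.62, -0.45 and -0.57 with saline and 0.62, 0.62 and 0.53 with LPS at 4 h. At 24 h it gave 1.68, 1.71 and 1.80 with saline and 1.63, 1.69 and 1.80 with LPS. The 4 h groups stood apart and the 24 h groups overlapped at a higher level. It rose by 1.14 at 4 h, 2.2-fold with an adjusted p of 6.28e-08. At 24 h the difference was -0.03 ± 0.059 (adjusted p = 0.755).

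VGLUT2 (Slc17a6, chr7:58926067-58926126) was the 1 gene of the set that was higher at both times. It gave -0.88, -1.12 and -1.04 with saline and 0.20, 0.22 and 0.19 with LPS at 4 h. The 24 h arrays gave -0.81, -0.84 and -0.96 with saline and -0.33, -0.44 and -0.28 with LPS. Unlike Slc17a7, its 2 saline groups were near each other and each LPS group was above both of them. It rose 2.33-fold at 4 h (1.22 ± 0.066, adjusted p = 8.27e-08) and 1.44-fold at 24 h (0.52 ± 0.066, adjusted p = 0.000149). The 24 h rise was of like size in its other probe (0.54, adjusted p = 7.81e-05 over all passing probes), whereas the 4 h rise was not called there (0.14, adjusted p = 0.0611). The first 30 bases of both probes are given because they share the 24 h call and not the 4 h call.
Slc17a6, chosen probe (chr7:58926067-58926126, + strand): taagtgcaaagcataaaacctcctgtgtgt
Slc17a6, other probe (chr7:58924553-58924612, + strand): ggatgaagaaacgggggacatcactcagaa
Genes known as markers of the thalamus, where VGLUT2 is abundant, were also examined. At 24 h, 9 of 12 such markers rose and 2 fell after LPS, and by adjusted p the first were Prkcd (1.28 ± 0.048, adjusted p = 3.26e-08), Ramp3 (0.50 ± 0.032) and Zic1 (1.15 ± 0.078). The largest rise, chosen after its values were seen, was in Gbx2 (2.27 ± 0.19), which was well above background on 1 of the 3 saline arrays and on all 3 LPS arrays. Their mean relative signal was -0.61 to -0.51 on the saline arrays and -0.07 to -0.04 on the LPS arrays at 24 h. At 4 h, where Slc17a6 rose more, 3 were higher and 7 lower, and by adjusted p the first were Tcf7l2 (-1.29 ± 0.049), Ramp3 (-0.52 ± 0.032) and Tnnt1 (-0.75 ± 0.053), while Gbx2 fell by 0.87. The mean at 4 h was 0.71 to 0.74 on the saline arrays and 0.48 to 0.49 on the LPS arrays. The part of tissue composition in the rise of Slc17a6 at 24 h was not tested.

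**Figure D1:**
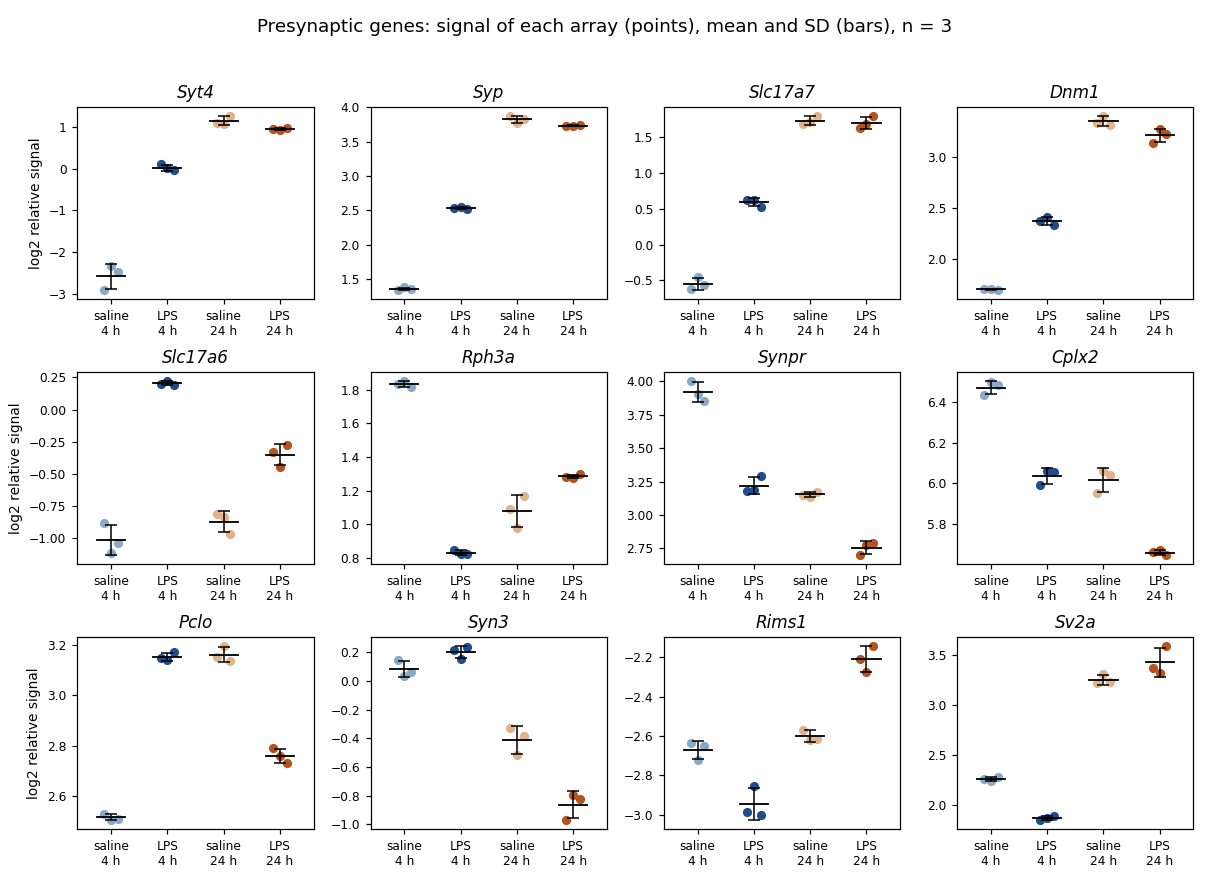
Relative signal (log2 of the intensity minus the array's 75th percentile) of 12 presynaptic genes on each array, by group, with the mean and SD of 3 arrays. Syt4, Syp, Slc17a7 and Dnm1 are lowest on the saline arrays of 4 h and highest at 24 h, Slc17a6 is higher after LPS at both times, and Pclo and Syn3 are lower after LPS at 24 h.

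The saline groups themselves differed between the times. From saline at 4 h to saline at 24 h, 22 of the 34 genes were higher and 7 lower, with a median difference of 0.45. Over all genes, 80.7% were called in this comparison, 32.3% higher and 48.4% lower, and the median was -0.16. The largest of these differences were in Syt4 (3.72 ± 0.12), Syp (2.47 ± 0.029), Slc17a7 (2.28 ± 0.059), Dnm1 (1.64 ± 0.039), Syt5 (1.45 ± 0.054) and Stx1a (1.33 ± 0.052). Each of these exceeded the LPS difference of the same gene at 4 h. The time after injection and the scan run cannot be told apart in it. Synpr (-0.76 ± 0.047), Rph3a (-0.75 ± 0.042), Amph (-0.63 ± 0.042) and Cplx2 (-0.45 ± 0.036) went the other way, as they did with LPS at 4 h, but Amph and Cplx2 were higher at 24 h with quantile normalization, at 0.12 and 0.34. Syn3 (-0.49 ± 0.061) was also lower at 24 h.

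For 20 of the 34 genes the LPS mean at 4 h lay between the 2 saline means, for 5 it was above both and for 9 below both. These positions were not counted over all genes, so they are not shown to be particular to the set. Set against the saline arrays of 24 h instead of its own controls, LPS at 4 h was higher in 5 genes and lower in 24, with 73.1% of all genes called, 41.5% higher and 31.7% lower. Of the 14 genes that rose at 4 h against their own controls, 10 were lower against the other saline group and 2 higher, Slc17a6 (1.08 ± 0.066) and Unc13a (0.12 ± 0.034). Both sets of differences use the same LPS arrays. The sign of the 4 h difference of Syp, Slc17a7, Dnm1, Vamp2, Stx1a, Syt1, Syt4, Napb, Vamp1 and Syt7 depended on the saline arrays used. The 24 h saline arrays differ from LPS at 4 h in time and scan run as well as treatment. That comparison therefore does not isolate LPS, and such turns of sign were not counted over all genes. Of the 9 genes that fell at 4 h, 5 were lower against both saline groups and 1 was higher against the other.

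**Figure D2:**
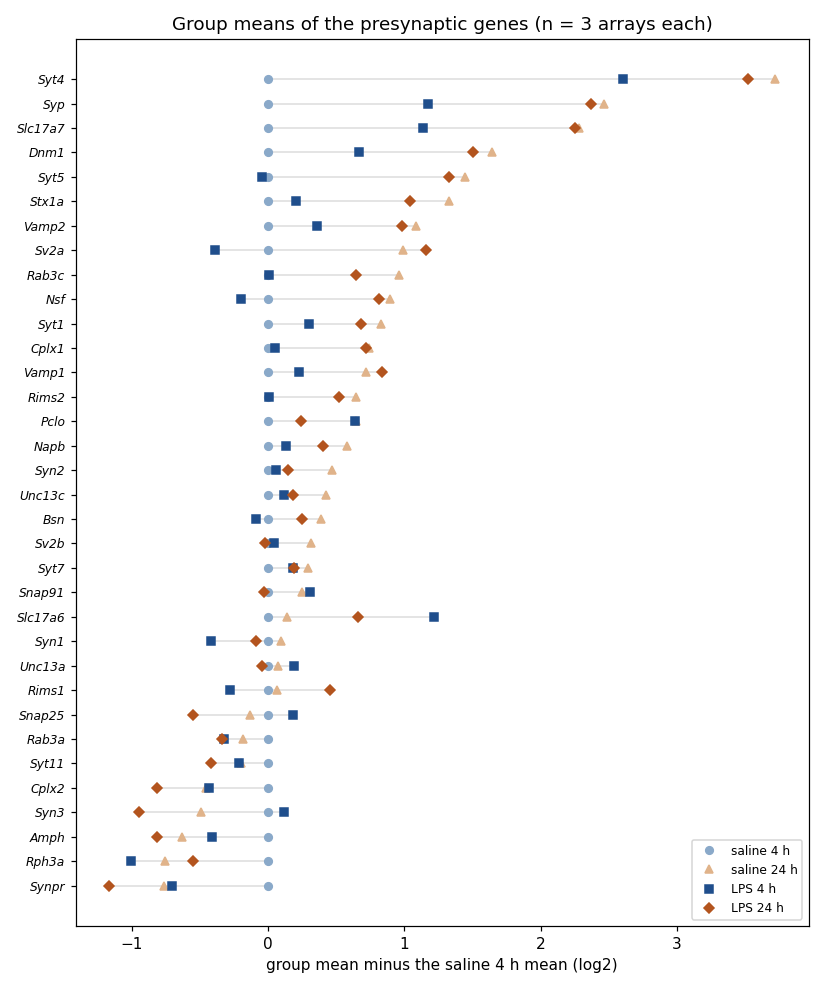
Group means of the 34 presynaptic genes minus the mean of the saline arrays at 4 h (log2; 3 arrays a group), ordered by the difference between the saline groups. The LPS means at 4 h (squares) lie between the saline means (circles and triangles) for 20 genes, a count not made over all genes. Those at 24 h (diamonds) mostly lie near or to the left of the saline means of 24 h.

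The LPS response itself was called different between the times for 25 of the 34 genes in a test of the difference, 6 with a higher and 19 with a lower response at 24 h than at 4 h. Of all genes 68.9% were called, 42.5% higher and 26.4% lower. By the chosen probes, the calls were higher at 4 h and lower at 24 h for 8 genes, Syp, Dnm1, Pclo, Snap91, Vamp2, Stx1a, Unc13a and Napb. The calls were the reverse for 3, Rph3a, Rims1 and Sv2a. They were lower at both times for 5, Synpr, Cplx2, Amph, Rab3a and Syt11, of which Synpr alone kept its direction at 4 h under quantile normalization and cyclic loess. For Cplx2 and Syt11 no difference between the responses was called (0.08 ± 0.051, adjusted p = 0.202, and -0.01 ± 0.067, adjusted p = 0.922).

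Probes of the same gene agreed less at 4 h than at 24 h. In 22 of the genes several probes passed the filter, and the median range of their differences was 0.76 at 4 h and 0.18 at 24 h. Over the 6775 genes with several passing probes it was 0.44 and 0.19. Probes were called in opposite directions at 4 h for 4 of the 22 genes, Cplx2, Nsf, Syt7 and Unc13a, and at 24 h for Unc13a. Over all such genes this was so for 17.1% at 4 h and 3.08% at 24 h. Whether transcripts of different length, base composition or cross-hybridization underlie these differences was not tested.

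**Figure D3:**
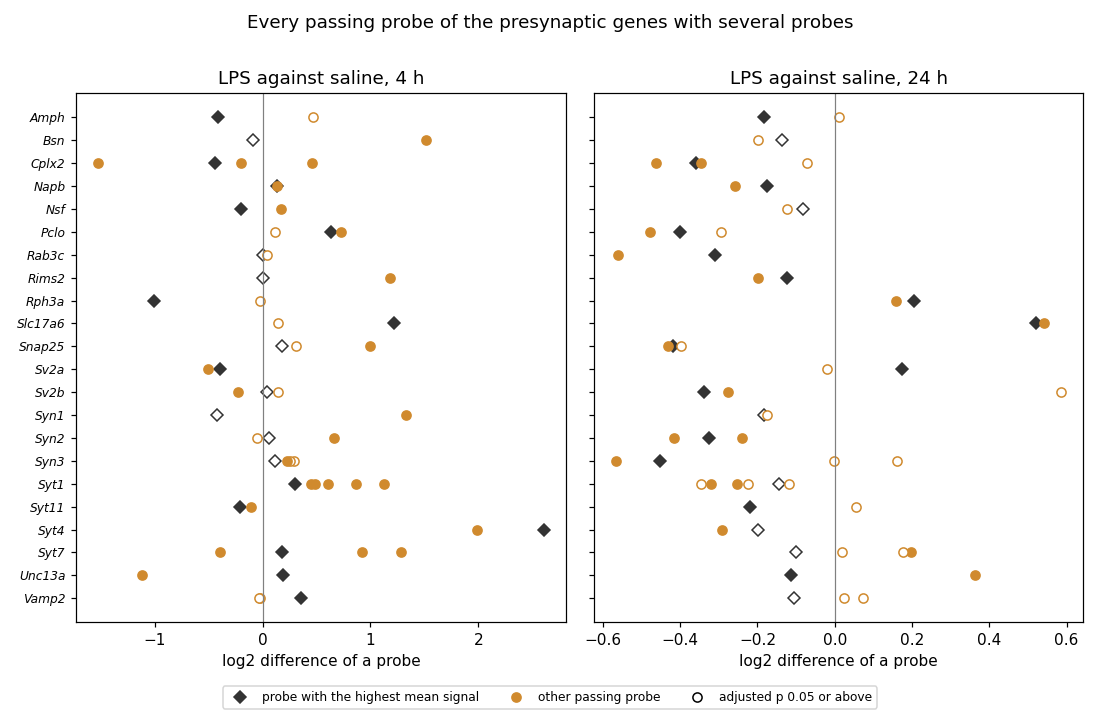
Log2 difference between LPS and saline at 4 h (left) and 24 h (right) for every passing probe of the 22 presynaptic genes with several probes. Diamonds are the probes that stand for the gene, circles the others, and open symbols have an adjusted p of 0.05 or above over all passing probes. The symbols of a gene are spread more widely at 4 h, as for Cplx2 from -1.52 to 0.46, than at 24 h, and the horizontal scales differ.

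The presynaptic probes were brighter than most. Their median log2 signal was 12.17, against 8.86 over all genes, and 14 of the 34 lay in the brightest eighth of genes. Differences moved with brightness at both times. At 4 h the median over all genes was -0.15 in the dimmest eighth, -0.02 in the fourth, -0.26 in the seventh and -0.42 in the brightest. The 24 h medians went down from 0.23 in the dimmest eighth to 0.00 in the fourth, -0.04 in the seventh and -0.06 in the brightest. Over 18193 genes the correlation of signal with the difference was r = -0.144 at 4 h and -0.23 at 24 h. No presynaptic gene lay in the 2 dimmest eighths, and the part of brightness in the presynaptic differences was not tested. The share of G and C in the chosen probes had a median of 42.5%, against 43.3% over all genes. Over 18193 genes, which are not independent, the G and C share correlated with the difference at r = -0.111 at 4 h and 0.178 at 24 h. Centring each array on probes of the same G and C count gave 14 genes higher and 10 lower at 4 h and 3 higher and 21 lower at 24 h. Under this centring 27.2% of all genes were called higher and 47.2% lower at 4 h, and 20.1% higher and 27.6% lower at 24 h.

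Other genes of the terminal and of the opposite side of the synapse were listed for comparison. Their counts stand against 29.3% of all genes higher and 44.5% lower at 4 h, and 23.3% and 22.8% at 24 h. Of 73 further presynaptic genes, such as the synaptojanin gene Synj1 and subunits of the clathrin adaptor AP2, 29 were higher and 28 lower at 4 h, and 10 were higher and 30 lower at 24 h. At 4 h Vamp4 (-1.6 ± 0.049) and Ap2a2 (1.42 ± 0.048) had the smallest adjusted p. At 24 h these were Cadps2 (-0.66 ± 0.04), Prrt2 (-0.56 ± 0.041) and Rab3b (-0.44 ± 0.033). Cadps2 and Prrt2 act in the priming and triggering of release. Of 25 measured postsynaptic scaffold and signalling genes, 16 were higher and 4 lower at 4 h, among them Nlgn3 (1.29 ± 0.026), Dlg4 (1.38 ± 0.038) and Camk2a (1.01 ± 0.029). At 24 h none was higher and 19 were lower, among them Nrgn (-0.41 ± 0.025), Camk2a (-0.38 ± 0.029) and Dlg4, which codes for PSD-95 (-0.47 ± 0.038). The median difference of the postsynaptic genes at 24 h was -0.32.

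General neuronal markers had lower values at 24 h as well. Over all genes, 22.8% were lower and 23.3% higher at 24 h, and 44.5% and 29.3% at 4 h. Of 15 pan-neuronal markers 10 were lower and none higher at 24 h, with Tubb3 (-0.37 ± 0.029), Stmn2 (-0.34 ± 0.034) and Ncam1 (-0.32 ± 0.034) first by adjusted p, and their median was -0.18. Their mean relative signal was 3.87 to 3.91 with saline and 3.65 to 3.67 with LPS at 24 h, and 3.6 to 3.64 with saline and 3.62 to 3.68 with LPS at 4 h. At 4 h 6 were higher, Ina (0.92 ± 0.032) and Nefh (0.92 ± 0.043) among them, and 4 lower, with Eno2 at -0.68 ± 0.038. Of 18 markers of hippocampal excitatory neurons, 10 were higher and 3 lower at 4 h, with Bok (-1.22 ± 0.032) and Prox1 (0.91 ± 0.045) among those called. At 24 h 1 was higher and 10 were lower, with Dsp (-0.79 ± 0.044), Neurod6 (-0.65 ± 0.051) and Tdo2 (-1.06 ± 0.13). Of 13 interneuron markers 6 were higher and 3 lower at 4 h, with Sst (1.5 ± 0.034), Cck (-1.02 ± 0.027) and Reln (1.11 ± 0.053), and 2 were higher and 4 lower at 24 h, with Pvalb (-0.41 ± 0.04), Npy (0.29 ± 0.03) and Sst (-0.32 ± 0.034).

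Markers of other cell types moved in the same samples. At 24 h 11 of 12 microglia markers were higher and 1 was lower, with Itgam (0.74 ± 0.026), C1qa (0.90 ± 0.032) and Aif1 (0.82 ± 0.033), and their mean relative signal was 2.62 to 2.65 with saline and 3.17 to 3.18 with LPS. At 4 h that mean was 3.88 to 3.90 with saline and 3.54 to 3.56 with LPS. Of 12 endothelial markers 11 were higher and none lower, with Ly6c1 (1.18 ± 0.039), Vwf (0.78 ± 0.028) and Esam (0.68 ± 0.031). Of 12 astrocyte markers 9 were higher and 2 lower, with Aldh1l1 (0.35 ± 0.033), Fgfr3 (0.28 ± 0.029) and Gja1 (-0.54 ± 0.064), while of 12 oligodendrocyte markers none was higher and 4 were lower, among them Opalin (-0.53 ± 0.064) and Ermn (-0.27 ± 0.063). At 4 h the microglia (2 higher, 8 lower), endothelial (1 higher, 11 lower) and oligodendrocyte markers (2 higher, 8 lower) were mostly lower, and of the astrocyte markers 6 were higher and 5 lower. Cx3cr1 (-1.30 ± 0.035), Kdr (-1.86 ± 0.029), Gfap (-1.0 ± 0.052) and Olig2 (-0.91 ± 0.046) were among these falls, and Cnp (1.45 ± 0.039) and Sox9 (0.75 ± 0.033) among the rises. The part of cell composition in the presynaptic differences at either time was not tested.

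Promoter sequences were taken from RefSeq (GRCm38.p6) for 29 of the 36 genes, as the 250 bases before each listed start. The GC box GGGCGG, bound by factors of the Sp family, was found on either strand in 21 of the 29 genes (72.4%), and in 35.4% of all 27025 genes. The cAMP response element TGACGTCA was found in 1 of the 29, and in 1.77% of all genes. TTCAGCACC, a part of the element bound by the neuronal silencer REST, was also in 1 of the 29 and in 0.348% of all genes, and the gene was Syn1 for both. The promoters of 3 genes are shown with these motifs in capitals: Syn1 for its 2 motifs, and Syp and Slc17a7 as genes that were at least 2-fold higher at 4 h and hold GC boxes. Dnm1, which rose 1.59-fold at 4 h, holds none of the 3 motifs in this window. Of the genes called lower at 4 h, Synpr, Sv2a, Rab3a, Syt11, Rims1 and Rph3a hold GC boxes, and Cplx2, Nsf and Amph do not. A relation of GC boxes to the LPS differences was not tested.
Syn1 promoter (chrX:20920919-20921168, - strand, GRCm38.p6): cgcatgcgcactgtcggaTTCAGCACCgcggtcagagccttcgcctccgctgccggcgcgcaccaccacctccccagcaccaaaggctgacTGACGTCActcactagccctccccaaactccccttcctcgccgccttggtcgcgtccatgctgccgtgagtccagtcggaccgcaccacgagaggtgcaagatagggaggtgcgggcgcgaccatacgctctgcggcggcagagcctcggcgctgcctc
Syp promoter (chrX:7638330-7638579, + strand, GRCm38.p6): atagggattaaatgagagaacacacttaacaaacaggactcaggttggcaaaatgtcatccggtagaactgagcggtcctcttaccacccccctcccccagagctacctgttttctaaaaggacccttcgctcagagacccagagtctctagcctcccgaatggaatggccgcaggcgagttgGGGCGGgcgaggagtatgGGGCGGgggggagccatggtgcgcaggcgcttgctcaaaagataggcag
Slc17a7 promoter (chr7:45163671-45163920, + strand, GRCm38.p6): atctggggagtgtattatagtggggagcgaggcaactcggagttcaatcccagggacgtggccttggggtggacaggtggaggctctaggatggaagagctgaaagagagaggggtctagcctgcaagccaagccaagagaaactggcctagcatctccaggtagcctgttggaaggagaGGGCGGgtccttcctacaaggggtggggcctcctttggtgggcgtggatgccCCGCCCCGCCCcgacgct
A match of letters is a description of the sequence and not a measurement of binding.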

How the data were processed

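Total RNA from 12 hippocampi was labelled with Cy3 and hybridized to Agilent mouse arrays, 1 per animal, per the labels' protocols. The deposited scanner files hold the spot intensity after background correction by Agilent Feature Extraction (10.7.3.1 per the file headers, 9.1 per the submitters' processing notes). A deposited log2 table of the same arrays was used as an alternative only. Control spots and 926 outlier spots were left out, repeated spots were averaged, and log2 intensities were centred on each array's 75th percentile. Of 41174 transcript probes 27683 passed the filter, giving 18193 genes. Group means were fitted with limma 3.58.1 in R 4.3.3 over all 12 arrays, and the fit was tested on simulated data. Arrays are single measurements, and their number limits the precision. All measured members are named, with every array's value for the 5 largest called rises and falls at each time and for genes whose probes were called in opposite directions, and from other lists up to 3 genes by adjusted p. Some genes of those lists are not reported here by name. The members and gene lists were chosen with earlier results of these data known. Alternatives covered background correction, scaling, filter, probe choice, controls, blocks and leaving out each array; G and C centring, cyclic loess and the other time's controls were added after the data were seen. Exon and UTR placement was not analysed here. Array positions are on mm9, and promoters on GRCm38.p6.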

Additional observations from a re-analysis of the deposited data

Results flagged for a closer look

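The LPS response of 25 presynaptic genes differed between 24 h and 4 h in a limma test of the difference itself (24 h minus 4 h, log2). It was lower at 24 h in 19, with Syt4 at -2.81, Syp at -1.27, Slc17a7 at -1.17, Pclo at -1.04, Dnm1 at -0.805, Slc17a6 at -0.697 and Snap25 at -0.599. The other lower responses were in Snap91 at -0.588, Syn3 at -0.572, Stx1a at -0.492, Vamp2 at -0.46, Syt1 at -0.447, Syn2 at -0.383, Sv2b at -0.381, Unc13c at -0.357, Rab3c at -0.313, Napb at -0.309, Unc13a at -0.3 and Syt7 at -0.285. It was higher at 24 h in 6, with Rph3a at 1.21, Rims1 at 0.667, Sv2a at 0.565, Synpr at 0.301, Amph at 0.229 and Rab3a at 0.165. Syt4 and Syp had the largest of these differences (adjusted p = 3.71e-07 and 5.82e-09). Of all genes, 68.9% were called in this test. Time and scan run cannot be told apart in it, and their separate parts were not tested.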

How the results depend on the processing

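With 1 array left out in turn, 14 genes were higher and 9 to 10 lower at 4 h, with a median difference of 0.202 to 0.265 above that of all genes, and 3 to 4 were higher and 16 to 20 lower at 24 h, with a median of -0.17 to -0.152 relative to all genes. No sign reversed among these where the full or the reduced fit called the gene. Over all genes, 27.7% to 28.6% were higher and 42.2% to 44.3% lower at 4 h. At 24 h these shares were 20.8% to 22.8% and 19.3% to 22.3%. At 24 h same-numbered arrays shared a slide. Their deviations correlated at 0.0738, 0.105 and 0.0991, against -0.0765 to -0.0242 for the other pairs. At 4 h same-numbered arrays were on different slides. Their correlations were 0.104, 0.192 and -0.159, against -0.34 to 0.274 for the other pairs. Whether replicate numbers pair animals was not tested. The replicate block gave 14 higher and 9 lower at 4 h with a median of 0.235, and 3 higher and 19 lower at 24 h with a median of -0.154. The slide block gave 14 higher and 10 lower at 4 h, where Syn1 gained a call (adjusted p = 0.0197), and 3 higher and 21 lower at 24 h, where Sv2a (0.0896) and Unc13a (0.0585) lost theirs and Syt1 (0.0207), Syt5 (0.0383) and Bsn (0.0371) gained one, with adjusted p in brackets. At 4 h the number lower was 5 with normexp, 4 with quantile normalization and 5 with the deposited table. Median scaling gave 8 higher and 14 lower, and cyclic loess 22 and 4. All 6 saline arrays as controls gave 7 and 22, and the other time's saline arrays 5 and 24. Controls from the other time differ in scan run as well. Of all genes, 29.3% were higher and 36.8% lower with all 6, and 41.5% and 31.7% with the other time's. The median relative to all genes at 4 h was 0.332 with quantile normalization, 0.288 with the deposited table, 0.44 with no filter, 0.357 with cyclic loess, -0.098 with all 6 saline arrays and -0.489 with the other time's. At 24 h normexp gave 1 higher and 9 lower, median scaling 2 higher, all 6 saline arrays 16 higher and 12 lower with a median of 0.121, and the other time's 20 higher and 8 lower with a median of 0.437. Over all genes at 24 h, 31.3% were higher and 41% lower with all 6 saline arrays, and 34.3% and 46.7% with the other time's. The presynaptic median relative to all genes at 24 h was -0.104 with cyclic loess. The causes of these shifts were not tested. Depth is limited for dim probes, and 3 arrays a group limit the precision.

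Signs that turned are given as log2 differences, for genes called in the main or the alternative result. Turns of sign where neither was called are not listed. For saline at 24 h against 4 h, they turned with normexp background correction in Rims1 (-0.293). Median scaling turned Unc13a (-0.113). Quantile normalization turned Rab3a (0.615), Snap25 (0.457), Cplx2 (0.337), Syt11 (0.571) and Amph (0.124). The deposited table turned Rab3a (0.566), Snap25 (0.389), Cplx2 (0.26), Syt11 (0.544) and Amph (0.0673). The mean of all probes turned Syn3 (0.501), Sv2b (-0.206), Snap25 (0.39), Cplx2 (0.571), Syt11 (0.163), Unc13a (-1.09) and Amph (0.491). For LPS at 4 h against saline at 24 h, they turned with normexp background correction in Rims1 (0.0569). Quantile normalization turned Cplx2 (-0.278), Amph (-0.0851) and Snap91 (-0.176). The deposited table turned Cplx2 (-0.244), Amph (-0.0338) and Snap91 (-0.169). The mean of all probes turned Syn3 (-0.277), Sv2b (0.193), Cplx2 (-0.997) and Amph (-0.462). For LPS against saline at 4 h, they turned with median scaling in Sv2b (-0.125), Napb (-0.0356) and Rims2 (-0.16). Quantile normalization turned Rab3a (0.141), Cplx2 (0.0594), Nsf (0.09), Syt11 (0.263) and Amph (0.0385). The deposited table turned Rab3a (0.159), Cplx2 (0.016), Nsf (0.13), Syt11 (0.27), Bsn (0.105) and Amph (0.0335). The mean of all probes turned Syn1 (0.454), Unc13a (-0.465), Bsn (0.716) and Amph (0.0286). All 6 saline arrays as controls turned Syn2 (-0.177), Syp (-0.0579), Sv2b (-0.116), Rab3c (-0.475), Vamp1 (-0.128), Vamp2 (-0.187), Stx1a (-0.458), Cplx1 (-0.317), Napb (-0.159), Syt1 (-0.114), Rims2 (-0.315), Dnm1 (-0.153) and Slc17a7 (-0.000666). Cyclic loess turned Rab3a (0.18), Cplx2 (0.0415), Nsf (0.154), Syt11 (0.247), Bsn (0.154) and Amph (0.0266). For the response at 24 h minus 4 h, they turned with quantile normalization in Rab3a (-0.269), Cplx2 (-0.37) and Amph (-0.161). The deposited table turned Rab3a (-0.391), Cplx2 (-0.397) and Amph (-0.162). The mean of all probes turned Syn1 (-0.634), Sv2b (0.00349), Unc13a (0.59) and Amph (-0.115). For LPS against saline at 24 h, they turned with the mean of all probes in Unc13a (0.125). All 6 saline arrays as controls turned Syp (1.14), Rab3c (0.17), Vamp2 (0.438), Stx1a (0.38), Cplx1 (0.348), Nsf (0.367), Napb (0.115), Syt1 (0.269), Syt4 (1.66), Syt5 (0.606), Rims2 (0.198), Rph3a (-0.172), Dnm1 (0.684) and Slc17a7 (1.11).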
